A study of Homo sapiens with 15 samples.

Results

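Polysome libraries of HEK-293 cells transfected with a GEMIN5 plasmid were compared with input libraries of the same kind of cells. The comparison took all 4 polysome libraries and all 3 input libraries of the GEMIN5 cells, 7 of the 15 libraries of the study, and covered every gene and every splicing event. After filters on low values, 12197 of 21519 genes and 10159 of 721551 splicing events were tested.

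HEK-293 is an established human embryonic kidney line. The GEMIN5 cells received the plasmid pcDNA3Xpress-Gemin5 with the lipid reagent Lipofectamine LTX and were harvested 24 h later. The control cells, used here only for reference, were untreated, and no empty plasmid is named for them, so in any difference between the cell sets GEMIN5 and the transfection itself cannot be told apart. All cells, control cells too, were held in 0.1 mg/ml cycloheximide, a drug that stalls ribosomes on their mRNA. Input RNA came from the cytoplasmic lysate, and polysome RNA from fractions 8 to 12 of a gradient of 10 to 50% sucrose. Libraries were made from polyadenylated RNA with a stranded kit. Transfected and untransfected cells of a dish were not separated, so a change in every cell and a larger change in some of them cannot be told apart. The submitters call the samples independent, but no label says whether each came from a culture of its own. The p-values thus cover only the spread among these libraries, which may be technical.

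Several ribosomes can read 1 mRNA at the same time, and such polysomes sediment far into a sucrose gradient. The polysome level of an mRNA relative to its level in the lysate is therefore used as a measure of how well it is loaded with ribosomes. An mRNA with a short coding region has room for few ribosomes and sediments higher in the gradient. Vertebrate mRNAs for ribosomal proteins start with a run of pyrimidines, the 5′ terminal oligopyrimidine (TOP) tract, through which growth signals switch their translation on and off. GEMIN5 is the member of the SMN complex (named after survival of motor neuron) that recognises small nuclear RNAs before Sm proteins are assembled on them. It also binds ribosomes and is known as a regulator of translation.

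Total counts were 12869066 to 18407933 in the 7 libraries. The 3 input libraries of GEMIN5 cells stood apart from the 12 others. Their TMM factors, which correct CPM (each gene's share of a library's counts, scaled up) for composition, were 0.354 to 0.488, against 1.34 to 1.53 in the GEMIN5 polysome libraries and 0.971 to 1.03 in the control input. Ribosomal protein genes took 58.2% ± 2.64 of their counts (SD, n = 3), against 22.8% ± 2.08 (n = 4) in GEMIN5 polysomes, 34.7% in control input and 22.5% in control polysomes. Coverage of their mRNAs leaned to the 3′ end: the median log2 ratio of spliced reads near the 3′ end to those near the 5′ end, over 942 genes, was 2.05 to 2.23, against 0.693 to 1.21 in GEMIN5 polysomes, 0.711 to 0.798 in control input and 0.696 to 1.49 in control polysomes. Both measures separated input from polysomes without overlap (exact two-sided permutation test, p = 0.0571, the smallest that 3 against 4 libraries can give, so this design cannot reach 0.05; 0.0762 adjusted over 8 measures). All 3 libraries of the group share these features, so no result could be computed without them. Beside the counts of whole genes, spliced reads within 500 nt of the 3′ end and the values of the control cells are therefore given, and the part of coverage in each gene's change was not tested otherwise.

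The polysome libraries of both cell sets were closer to each other than the input libraries were. The median absolute log2 difference between GEMIN5 and control cells was 0.12 over the polysome means and 0.53 over the input means of the 12197 genes. It exceeded 1 for 88 genes (0.721%) in polysomes and for 2800 genes (23.0%) in input.

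GEMIN5 mRNA, which includes transcripts of the plasmid, stood at 1319, 1543 and 1422 CPM in the 3 input libraries and at 1035, 982, 1034 and 647 CPM in the 4 polysome libraries. All polysome libraries were below all input libraries, and the fourth was the lowest. The log2 change was -0.63 ± 0.17 (SE; adjusted p = 0.00318, edgeR quasi-likelihood test with Benjamini-Hochberg adjustment over all genes, as for every adjusted p of a gene here). Library size alone turned it to 1.20 (adjusted p = 1.51e-05, edgeR), and spliced reads within 1500 nt of the 3′ end gave -1.71. Control cells held 13.9 CPM in input and 5.80 CPM in polysomes, a change of -1.26. Of 10 genes that mark HEK-293 cells, such as NEFM, NEFL and VIM, 9 reached 5 counts in an input library and 10 in a polysome library. Markers of 3 other sources of cells were near 0: 20 liver genes summed to 43 to 59 counts per input library and 14 to 27 per polysome library, 12 blood cell genes to 94 to 116 and 83 to 110, and 10 fibroblast and endothelial genes to 17 to 24 and 31 to 53. FGA, SERPINA1 and PTPRC were among those at 0 in all 7 libraries. APOA1, HBA1, HBA2 and COL1A1 reached 5 counts in a library of both groups, APOA2, AHSG, CYP2E1 and VTN in input only and LUM in polysomes only. The summed percent of counts of all markers of these 3 sources was 0.00103 in input and 0.00112 in polysomes (exact permutation p = 0.286). It was 0.000913 to 0.0198 in the 8 control libraries, and its part in differences from control was not tested.

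The first transcribed bases of 9 mRNAs that the results turn on are shown from RefSeq (GRCh38.p14), 5′ to 3′, with the leading run of C and T in capitals. They show which of these annotated starts carry a TOP tract, and other starts of the same genes were not examined. The first 5 are those of mRNAs for ribosomal proteins and of TPT1, a TOP mRNA of another kind. The start shown for RPS29 has no such tract, which does not say that its mRNA lacks one. The last 4 belong to mRNAs for an iron store, an Sm protein, an RNA-binding protein and myotrophin.
RPS29 (chr14:49598691-49598710, minus strand): Tggcagcggtggttgtttct
RPS12 (chr6:132814569-132814588, plus strand): CTCTTTCCCTgccgccgccg
RPLP1 (chr15:69452818-69452837, plus strand): CCCCTTTCCTCagctgccgc
RPL12 (chr9:127451387-127451406, minus strand): CCTCTCggctttcggctcgg
TPT1 (chr13:45341164-45341183, minus strand): CTTTTCCgcccgctcccccc
FTL (chr19:48965309-48965328, plus strand): gcagttcggcggtcccgcgg
SNRPG (chr2:70293439-70293458, minus strand): gtgaagcccgcgcagagctc
HNRNPA0 (chr5:137754344-137754363, minus strand): CTCTTTgtgtggtgcccaga
MTPN (chr7:135977340-135977359, minus strand): aagtgtaaaggttcctgcct

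Of the 12197 genes tested, 8248 (67.6%) differed between polysomes and input, 3981 (32.6%) higher and 4267 (35%) lower in polysomes. For 7852 genes (64.4%) the ranges of the 2 groups did not overlap. With that many calls, a list of genes is read against these shares. TMM sets the typical gene to about 0 (median log2 change -0.01). Scaling by library size alone moved the median of all genes to 1.78 and the split to 10308 higher and 465 lower, so a change here is a change relative to the typical gene. Counting spliced reads within 500 nt of the 3′ end alone, 1878 genes could be tested and 476 rose (25.3%) and 628 fell (33.4%). Within 1500 nt, 3494 of 5363 genes differed (65.2%). These counts have a TMM scaling of their own, which sets their typical gene to about 0. Over the 1677 genes tested both ways, the median was -0.06 by spliced reads within 500 nt and -0.91 by gene counts. A higher value by spliced reads than by gene counts therefore includes this shift of the zero.

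FTL and FTH1, which encode the chains of the iron store ferritin and carry an iron-responsive element that blocks translation when iron is low, fell the most among the 12 named genes with the largest falls, apart from genes with nearly no spliced reads. FTL stood at 3235, 6087 and 5121 CPM in input and at 88.9, 82.5, 67.0 and 95.5 CPM in polysomes. The groups were far apart, and the log2 change was -5.85 ± 0.22 (SE; adjusted p = 2.03e-12, edgeR). FTH1 fell by 5.19 ± 0.22. Both also fell by 4.17 in control cells, in which input held 1205 CPM of FTL and polysomes 66.9 CPM. Spliced reads within 500 nt of the 3′ end gave -4.66 for FTL. The genes of SELENOW, a small selenoprotein (-4.58 ± 0.25), COMMD6 (-4.41 ± 0.25), and the ribosomal proteins RPS29, RPS2 and RPLP1 followed.

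TTC16 and MATN1 had larger values, -8.05 and -6.45, but for both the library with the fewest spliced reads of its group held 0, in input and in polysomes alike. TTC16 stood at 42.1 to 63.0 CPM in input and at 0.0940 to 0.325 CPM in polysomes. Whether the counts of such genes come from their own spliced mRNA was not tested. SLCO5A1 and HFM1 had few spliced reads as well: HFM1 rose from 454 to 638 CPM in input to 10105 to 18699 CPM in polysomes (4.64 ± 0.34), with as few as 1 spliced read in a polysome library and 0 in an input library. HFM1 stood at 195 CPM in control input and 9023 CPM in control polysomes, a change of 5.53.

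Next among the 12 named genes with the largest rises came RAVER1, whose protein binds RNA together with the splicing repressor PTBP1. It stood at 1.67, 1.97 and 0.150 CPM in input and at 33.0, 34.3, 37.8 and 17.9 CPM in polysomes. No polysome library came near the input libraries, and the fourth was the lowest of them (log2 change 4.58 ± 0.40, adjusted p = 1.08e-08, edgeR; control cells 1.29). QKI, a splicing regulator, rose by 4.55 ± 0.38 (control 2.15). MTPN rose from 6.14 to 8.90 CPM to 88.9 to 158 CPM (4.08 ± 0.21; control 2.25). YWHAG, a 14-3-3 protein that binds phosphorylated partners, and SKI, a repressor of TGF-beta signalling, rose by 4.25 and 4.11. All of these are long mRNAs, of 3595 nt for RAVER1, 9463 nt for QKI, 3738 nt for MTPN, 3750 nt for YWHAG and 5613 nt for SKI in the principal transcript. The input library with the fewest spliced reads held 0 for RAVER1, YWHAG and SKI, 2 for QKI and 2.03 for MTPN. Each polysome library held at least 18.1 for SKI, 28 for YWHAG, 82.5 for QKI, 163 for MTPN and 233 for RAVER1. The part of the low input values in these rises was not tested.

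**Figure D1:**
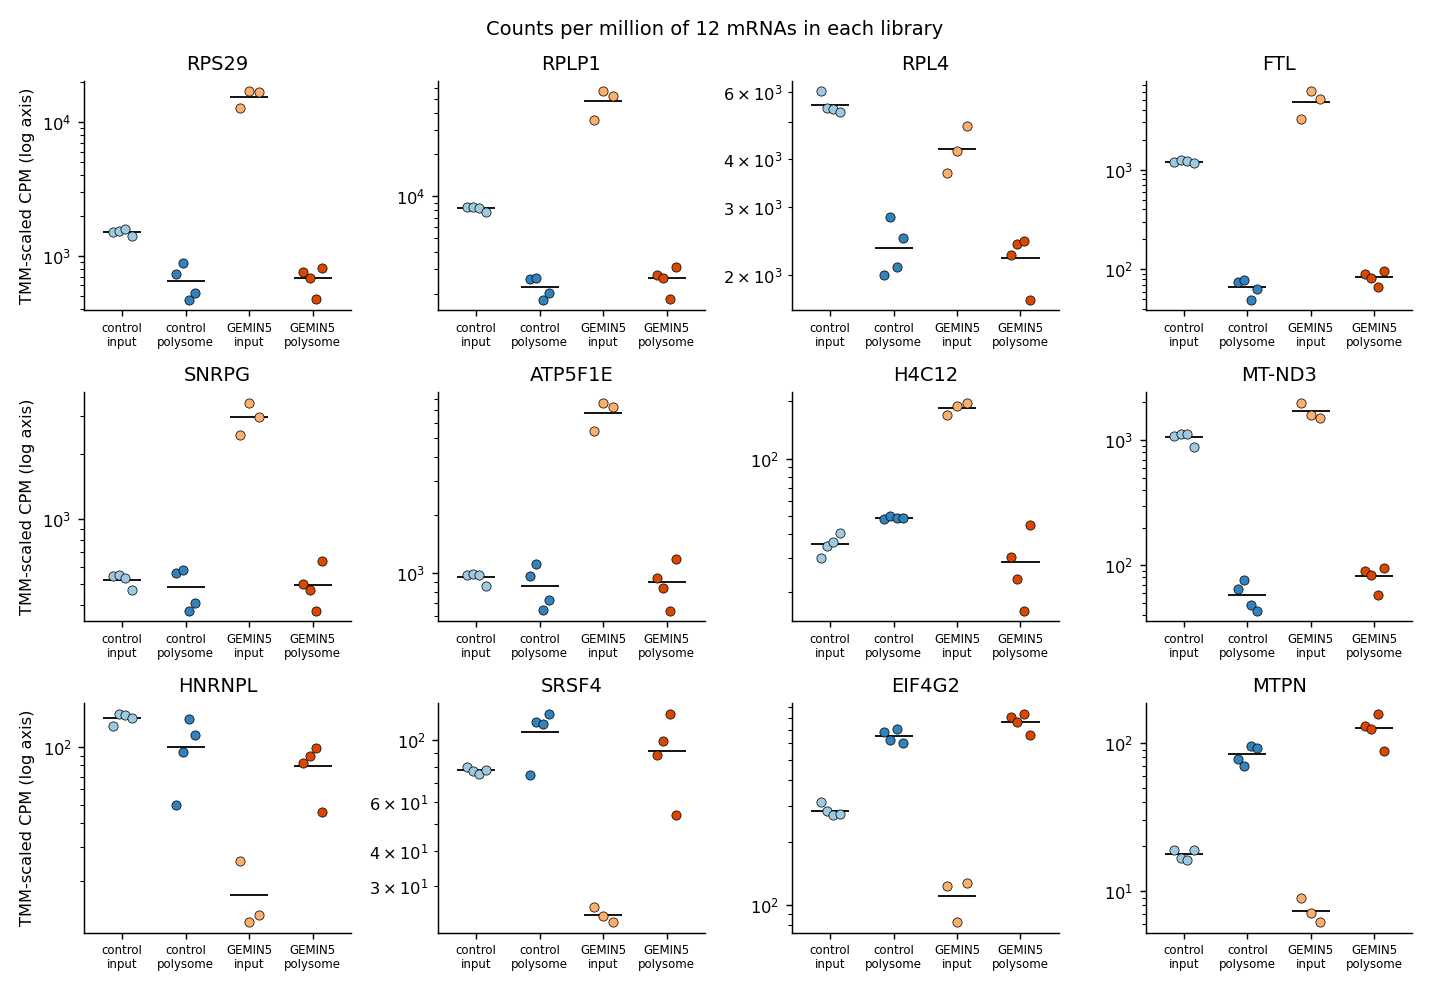
TMM-scaled CPM (log axis) of 12 mRNAs in each library of the 4 groups, with 1 point per library and the group mean as a line. RPS29, RPLP1, FTL, SNRPG and ATP5F1E lie far above the other groups in GEMIN5 input, HNRNPL, SRSF4, EIF4G2 and MTPN lie below them there, and the polysome groups of both cell sets lie close together.

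By gene counts of all coding genes, short mRNAs were lower in polysomes and long mRNAs higher. The fewer genes with testable spliced reads near the 3′ end did not follow this course for long mRNAs, by spliced reads or by gene counts. The median log2 change was -2.05 for the 69 transcripts of up to 500 nt, -1.63 for 553 of 500 to 1000 nt and -0.60 for 2364 of 1000 to 2000 nt, then 0.34 for 1927 of 3000 to 4000 nt and 0.47 for 2448 of 4000 to 6000 nt (library size only: -0.24, 0.16, 1.20, 2.14 and 2.27, which turns the sign for transcripts of 500 to 2000 nt). Of the 553 transcripts of 500 to 1000 nt, 17 rose and 489 fell. Spliced reads within 500 nt of the 3′ end could be tested for fewer genes. Their medians were -1.21 for 28 genes of up to 500 nt, -0.51 for 353 at 500 to 1000 nt and 0.17 for 751 at 1000 to 2000 nt. At 3000 to 4000 nt the median was -0.14 for 110 genes, and at 4000 to 6000 nt -0.78 for 74. The gene counts of these same genes gave -2.43, -1.66, -0.79, -0.35 and -0.77 in the same order. Control cells showed a flatter course, from -0.24 at 500 to 1000 nt to 0.32 at 4000 to 6000 nt. By coding length the median rose from -1.65 (up to 300 nt) to 0.31 (1800 to 2400 nt) and came down to -0.32 above 6000 nt, where 44 of 325 genes rose and 133 fell. By 3′ UTR length it rose from -0.99 (up to 100 nt) to 0.58 (2000 to 4000 nt).

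**Figure D2:**
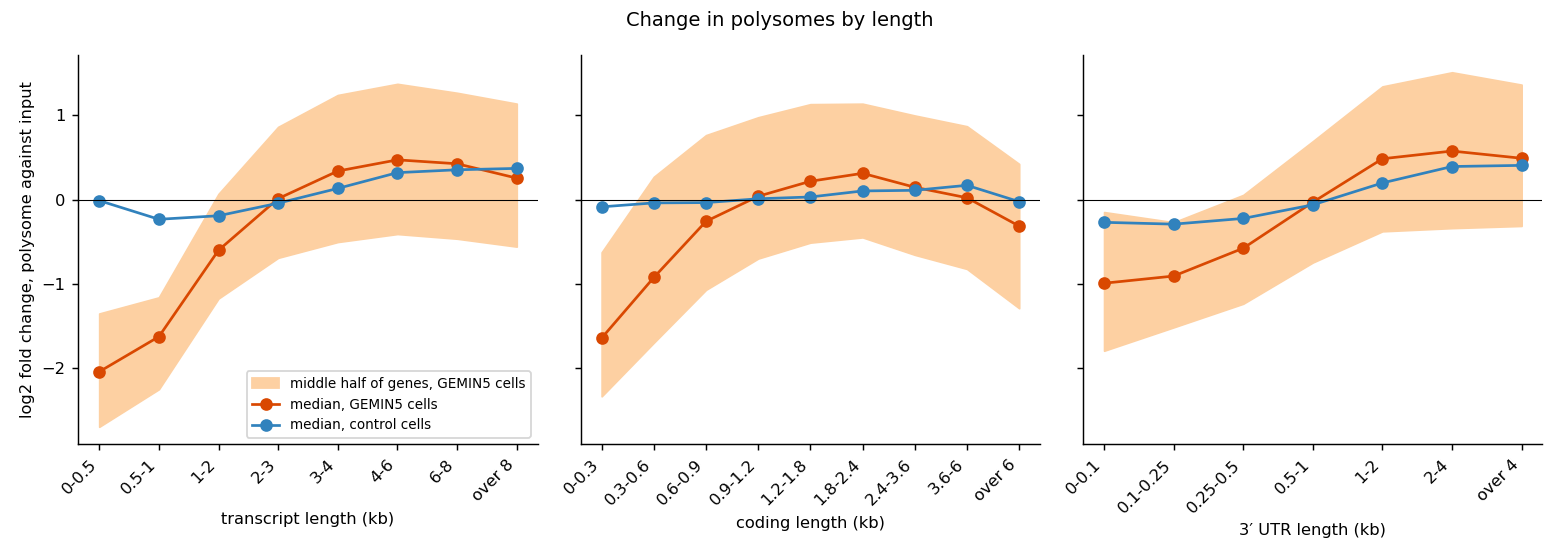
Median log2 change of gene counts between polysomes and input by transcript, coding and 3′ UTR length, with the middle part of the genes (between the outer quartiles) shaded for GEMIN5 cells. The GEMIN5 line climbs from -2.05 for the shortest transcripts to 0.47 at 4000 to 6000 nt, and the control line stays between -0.24 and 0.37 by transcript length.

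Where a read lies along the mRNA moved together with its change. Spliced reads, scaled to total counts, were compared by the distance of the exon join from the 3′ end. In GEMIN5 cells the median log2 change of joins in genes outside the lists named here was 0.32 within 300 nt of the 3′ end, 0.64 at 300 to 500 nt, 1.54 at 750 to 1000 nt and 2.42 at 2000 to 3000 nt. In control cells it was between 0.19 and 0.38 at every distance. Joins in ribosomal protein genes lay at -1.36 within 300 nt and -1.12 at 2000 to 3000 nt in GEMIN5 cells, below the other genes at each distance. Joins in genes for hnRNP and SR proteins lay above them, at 1.64 at 300 to 500 nt and 3.41 at 2000 to 3000 nt.

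**Figure D3:**
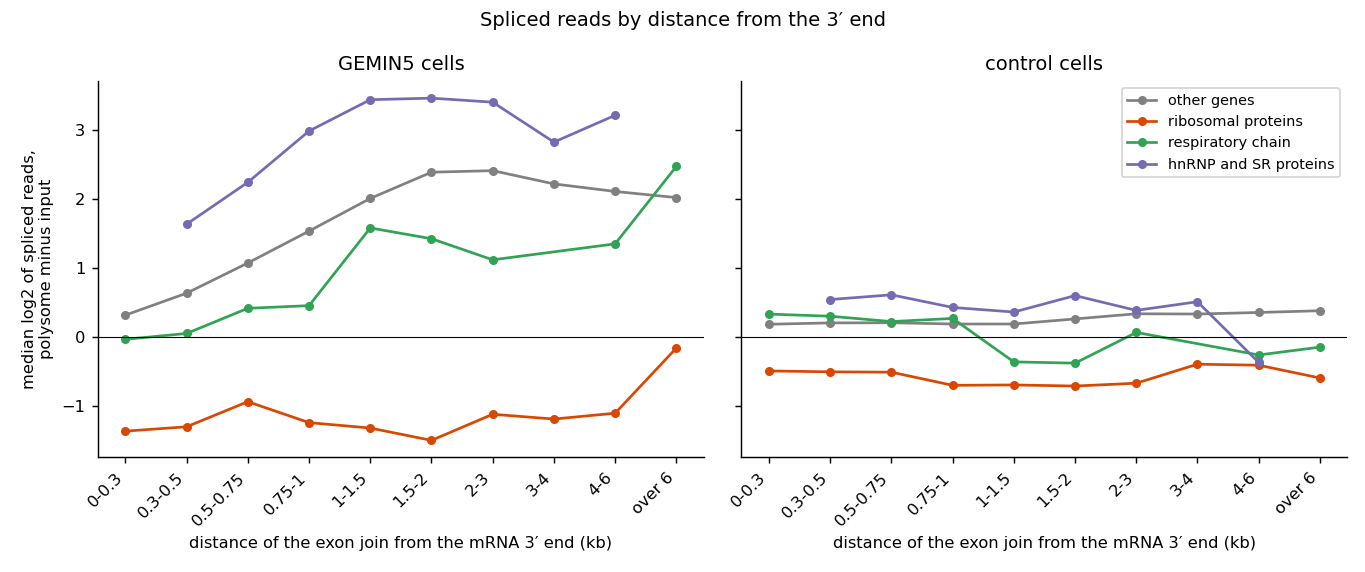
Median log2 change of spliced reads between polysomes and input, scaled to total counts, by the distance of the exon join from the 3′ end, in GEMIN5 cells (left) and control cells (right), for points with at least 5 introns. In GEMIN5 cells the line of other genes climbs from 0.32 to 2.42, ribosomal protein genes lie below it and hnRNP and SR protein genes above it, and in control cells the line of other genes stays between 0.19 and 0.38.

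All 30 measured small subunit ribosomal protein genes, of 32 listed, and all 45 measured large subunit genes, of 47, fell in polysomes, against 35% of all genes. These proteins build the ribosome itself. The median log2 change was -3.29 for the small subunit and -3.01 for the large subunit (library size only: -1.46 and -1.20). In every one of the 75 genes, no polysome library reached the level of any input library. RPS29, in the small subunit head, stood at 12684, 16945 and 16643 CPM in input and at 763, 682, 472 and 815 CPM in polysomes, a log2 change of -4.50 ± 0.23 (adjusted p = 4.05e-11, edgeR). RPS2, at the mRNA entry side, stood at 71116 to 126740 CPM in input and 3814 to 5563 CPM in polysomes. RPLP1, of the stalk that recruits elongation factors, fell from 35555 to 56768 CPM to 1830 to 3121 CPM (-4.24 ± 0.22).

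The smallest changes in these lists were those of RPL4 (-0.95 ± 0.16) and FAU (-1.89 ± 0.18), which encodes RPS30 fused to a ubiquitin-like protein. Under library size alone RPL4 turned positive, as did 3 other large subunit genes, and the other 71 stayed below 0. In control cells the medians of these lists were -1.06 and -0.98, with 27 and 43 genes lower. Counted by spliced reads within 500 nt of the 3′ end, 21 of 21 small subunit and 25 of 25 large subunit genes that could be tested fell. Their medians were -2.08 and -1.61, and -3.29 and -2.74 by gene counts of the same genes. Many ribosomal protein genes have processed copies elsewhere in the genome, and how reads shared with such copies were counted is not given in the sources used here.

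A TOP tract, taken as a C followed by at least 4 further C or T from the first transcribed base of the RefSeq start, was present in 41 of the 60 ribosomal protein genes with a start (68.3%) and in 5.00% of 9799 other genes. Ribosomal protein genes with it had a median change of -3.29 and the 19 without it -2.74. Outside these genes the tract moved little: the median was -0.07 for 490 genes with it and 0.01 for 9309 without it. Among other transcripts of up to 1000 nt it was -1.81 for 26 genes with it and -1.67 for 426 without it. HNRNPA0, whose start is shown above with such a run, rose. No match says only that these letters are not at this start.

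Other known TOP mRNAs split. Of 18 measured, of 25 listed, 11 fell and 2 rose, with a median of -0.97 (library size only 0.83, so the sign turns; control -1.04). TPT1, a tumour protein that binds calcium and tubulin, stood at 8767 to 12134 CPM in input and 981 to 1299 CPM in polysomes (-3.24 ± 0.17). EEF1B2, the exchange factor of the elongation factor, fell by 2.60 ± 0.16 and RACK1, a scaffold on the small subunit, by 2.54 ± 0.17. EIF4B (0.64 ± 0.18) and the poly(A)-binding protein PABPC1 (0.43 ± 0.16) rose. PABPC1 no longer passed without polysome library 3 (adjusted p = 0.0634, edgeR) or when counted by spliced reads within 500 nt (adjusted p = 0.0882).

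Initiation factors load the ribosome on the mRNA. Of 35 measured, 18 fell and 11 rose, with a median of -0.53 (library size only 1.29, so the sign turns; control -0.12). EIF3K, a small subunit of the eIF3 scaffold, stood at 1245 to 1631 CPM in input and 411 to 526 CPM in polysomes (-1.59 ± 0.15, but 0.23 under library size alone). EIF4H, a helper of the helicase eIF4A, rose from 24.1 to 36.4 CPM to 219 to 302 CPM (3.18 ± 0.16; control 1.68). EIF4G2, a scaffold used in alternative initiation, rose by 2.79 ± 0.16 and the cap-binding protein EIF4E by 2.21 ± 0.17. Spliced reads within 500 nt gave 5.27 for EIF4G2. EIF5A, which helps ribosomes through stretches of proline, rose by 1.03 ± 0.13. Of 20 aminoacyl-tRNA synthetases, which charge tRNAs, 14 fell and 3 rose (median -0.70, control -0.77, library size only 1.12, so the sign turns).

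Genes of mitochondria were lower in polysomes in 3 lists. Of 59 measured nuclear genes of the respiratory chain, of 72 listed, 54 fell and 1 rose (median -1.75, control -0.16; library size only 0.07, so the sign turns). ATP5F1E, the epsilon subunit of ATP synthase, stood at 5476, 7679 and 7272 CPM in input and at 940, 835, 636 and 1184 CPM in polysomes. The groups did not overlap, and the log2 change was -2.92 ± 0.21 (adjusted p = 1.41e-09, edgeR), against -0.14 in control cells. NDUFB1 of complex I fell by 2.72 and UQCRQ of complex III by 2.64. SDHC of complex II was the 1 that rose (0.54 ± 0.12). By spliced reads within 500 nt, 27 of 35 fell and 2 rose, with a median of -0.71 (gene counts of the same genes -1.84).

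Of 44 mitochondrial ribosomal protein genes, 37 fell and 2 rose (median -1.22, control -0.08; library size only 0.56, so the sign turns). MRPL33 stood at 833 to 1057 CPM in input and 112 to 174 CPM in polysomes (-2.71 ± 0.17), and MRPS27 (1.54 ± 0.28) and MRPL3 (0.68 ± 0.12) were the ones that rose. By spliced reads within 500 nt, 7 of 15 fell and 5 rose (median -0.21, gene counts of the same genes -1.28). The 13 mRNAs encoded by mitochondrial DNA, which are translated inside the organelle and not by cytosolic ribosomes, gave 12 lower and 0 higher, with a median of -2.46 (library size only -0.66; control -3.19). MT-ND3 stood at 1995, 1597 and 1497 CPM in input and at 89.7, 84.0, 58.1 and 96.0 CPM in polysomes (-4.37 ± 0.21; control -4.18). MT-CO2 fell by 3.51 and MT-CO3 by 2.73. MT-ATP8, at 34.9 to 72.5 CPM in input and 43.4 to 77.4 CPM in polysomes, was the 1 that did not pass.

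Replication-dependent histone mRNAs lack a poly(A) tail and end in a stem-loop, so poly(A) libraries hold few of them: they took 0.0247% of the counts in input and 0.0353% in polysomes. Of 36 measured genes, of 55 listed, 29 fell and 0 rose after TMM scaling (median -1.43; library size only 0.37, so the sign turns). H4C12 stood at 170, 189 and 197 CPM in input and at 30.4, 23.3, 15.8 and 44.8 CPM in polysomes (-2.70 ± 0.22; control 0.47). H4C11 fell by 2.74. In control cells 20 of the 36 rose and 0 fell (median 0.85). The genes are short, without introns, and near-identical to each other, so reads may be shared between them.

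Small open reading frames and giant ones both tended to be lower. Of 34 measured mRNAs with a small open reading frame, of 40 listed, 32 fell and 2 rose (median -1.97, control -0.13, library size only -0.15). TOMM7, a subunit of the mitochondrial import pore, stood at 3351 to 4769 CPM in input and 303 to 551 CPM in polysomes (-3.24 ± 0.21). TMA7, a ribosome-associated protein, fell by 3.11. PTMA, an acidic chromatin protein (1.98 ± 0.17), and the modifier SUMO2 (0.49 ± 0.13) were the ones that rose. By spliced reads within 500 nt, 14 of 18 fell and 0 rose. Of 44 mRNAs for giant proteins, 21 fell and 4 rose (median -0.61, control -0.36; library size only 1.20, so the sign turns). The ubiquitin ligases UBR4, at 15.8 to 16.4 CPM in input and 2.37 to 3.68 CPM in polysomes (-2.48 ± 0.19), and HERC2 (-2.47 ± 0.20) fell in control cells too, by 1.49 and 1.04. UBR4 also fell by 2.31 in spliced reads within 500 nt.

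The partners of GEMIN5 in the SMN complex moved in both directions. Of 9 measured members, 5 fell and 2 rose (median -0.63; library size only 1.20, so the sign turns). GEMIN4 stood at 38.5 to 45.1 CPM in input and 9.81 to 12.2 CPM in polysomes (-1.91 ± 0.15). SMN1 (1.34 ± 0.16) and SMN2 (0.67 ± 0.13) rose, but these near-identical genes share nearly all their reads, so their split is uncertain. STRAP stood at 167 to 206 CPM in input and 191 to 245 CPM in polysomes and did not pass (0.15 ± 0.13).

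The Sm and LSm proteins, which form rings on small nuclear RNAs, were mostly lower: 17 of 20 fell and 1 rose (median -1.65, control -0.14; library size only 0.15, so the sign turns). SNRPG stood at 2464, 3467 and 2978 CPM in input and at 497, 470, 376 and 640 CPM in polysomes. Every polysome library was below every input library, with a log2 change of -2.58 ± 0.19 (adjusted p = 1.57e-09, edgeR) against -0.12 in control cells. SNRPE (-2.29 ± 0.16) and SNRPD2 (-2.25 ± 0.19) followed. CLNS1A, the chaperone that hands Sm proteins to the SMN complex, was the 1 that rose (0.58 ± 0.12). By spliced reads within 500 nt 4 of 5 fell.

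Regulators of splicing moved the other way. Of 25 measured hnRNP genes, whose proteins coat pre-mRNA and often repress exons, 19 rose and 0 fell, against 32.6% higher among all genes (median 0.96, library size only 2.77, control -0.01). Of 15 measured SR and TRA2 genes, whose proteins mostly promote exons, 12 rose and 0 fell (median 1.14, library size only 2.96, control 0.22). HNRNPL stood at 25.6, 12.3 and 13.3 CPM in input and at 82.5, 89.5, 98.2 and 45.7 CPM in polysomes. The fourth polysome library was again the lowest but above all input libraries (2.19 ± 0.32, adjusted p = 7.84e-06, edgeR; control -0.50). PTBP3 rose by 2.61 ± 0.30 and HNRNPA0 by 2.42 ± 0.29.

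SRRM1, a coactivator of SR proteins, rose by 2.59 ± 0.38, SRSF4 by 1.96 ± 0.22 and TRA2A by 1.86 ± 0.30. SRSF3 rose from 326 to 397 CPM to 511 to 704 CPM (0.81 ± 0.19). The groups did not overlap for 13 of the 25 hnRNP genes and for 11 of the 15 SR and TRA2 genes, against 64.4% of all genes. HNRNPA2B1 stood at 485, 399 and 409 CPM in input and at 864, 971, 1407 and 358 CPM in polysomes (1.06 ± 0.41). The fourth polysome library lay below all input libraries, and the call (adjusted p = 0.0296, edgeR) was lost without input library 1 or 3 or polysome library 2 or 3 (adjusted p = 0.0517 to 0.101). HNRNPA1 did not pass (0.52 ± 0.23, adjusted p = 0.0547), and passed without input library 2 or polysome library 4. By spliced reads within 500 nt, 5 of 5 hnRNP genes rose, with a median of 1.31 (gene counts of the same genes 0.83).

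**Figure D4:**
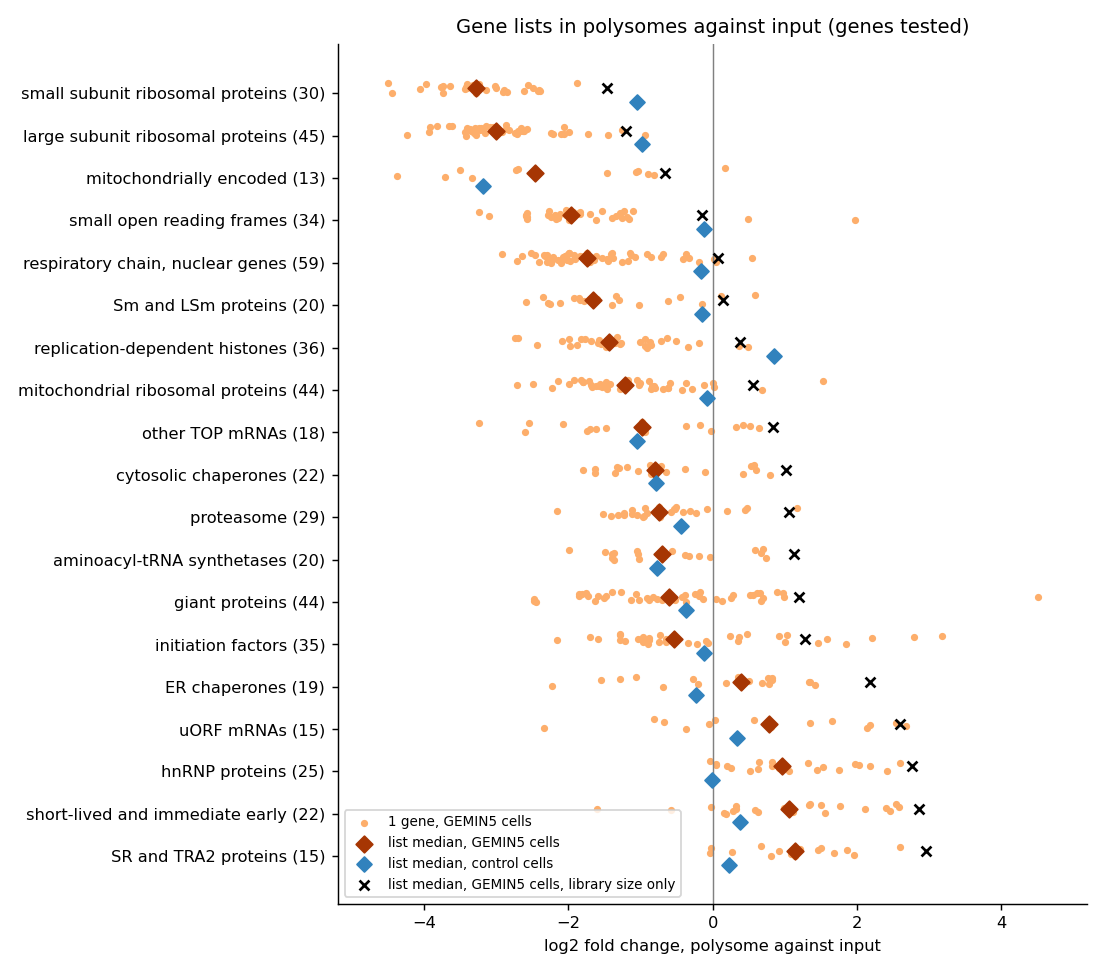
Log2 change between polysomes and input of each gene in 19 lists (small points), with list medians in GEMIN5 and control cells (diamonds) and the GEMIN5 median under library size alone (crosses). Ribosomal protein lists lie lowest at -3.29 and -3.01, SR and TRA2 proteins highest at 1.14, and each cross lies to the right of its diamond.

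Some mRNAs carry short reading frames upstream of the main one (uORFs), which hold back ribosomes until stress. Of 15 measured uORF mRNAs, 9 rose and 3 fell (median 0.78, library size only 2.60, control 0.34). PPP1R15B, the constitutive subunit of the eIF2 alpha phosphatase, rose from 1.64 to 3.34 CPM to 11.8 to 24.9 CPM (2.69 ± 0.31). AZIN1, which relieves the block on polyamine synthesis, rose by 2.54 ± 0.19. ATF4, the main transcription factor of the integrated stress response, stood at 1069 to 1395 CPM in input and 752 to 1222 CPM in polysomes and did not pass (-0.37 ± 0.17; 1.44 under library size alone), though it did without input library 1 or polysome library 4. Its target DDIT3 fell from 42.8 to 76.5 CPM to 11.1 to 15.0 CPM (-2.34 ± 0.26; control -0.42).

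Of 15 selenoproteins, which read a stop codon as selenocysteine, 10 fell and 4 rose (median -1.07, control 0.14; library size only 0.76, so the sign turns). SELENOW stood at 586 to 859 CPM in input and 18.5 to 48.0 CPM in polysomes, and spliced reads within 500 nt gave -3.37. GPX4, the guard against lipid peroxides, fell by 3.21 ± 0.25 and the thioredoxin reductase TXNRD1 by 2.92 ± 0.13. For TXNRD1 an input library held as few as 7.09 spliced reads and each polysome library at least 272, and whether its counts come from its own spliced mRNA was not tested. Of 9 measured genes of the iron list, 4 fell, with the ferritin chains among them, and 2 rose. Among all genes 35% fell and 32.6% rose. The ones of the iron list that rose were IREB2, an iron-responsive element binding protein (1.36 ± 0.26), and NCOA4, the receptor for the breakdown of ferritin (1.15 ± 0.22, control -0.65).

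Of 22 cytosolic chaperones 15 fell and 3 rose (median -0.80, control -0.78; library size only 1.01, so the sign turns), whereas of 19 chaperones of the endoplasmic reticulum 10 rose and 5 fell (median 0.39, library size only 2.19, control -0.24). CANX, a lectin chaperone, rose by 1.42 ± 0.30 and HYOU1 by 1.34 ± 0.26. HSP90B1 stood at 270 to 336 CPM in input and 54.8 to 70.8 CPM in polysomes (-2.22 ± 0.13) and fell by 1.59 in control cells. Proteasome genes gave 23 of 29 lower and 2 higher (median -0.74, library size only 1.06, so the sign turns). PSMD1 fell by 2.16 ± 0.17 and PSMB4 by 1.51 ± 0.14 (0.31 under library size alone). By spliced reads within 500 nt, which have a zero of their own, 3 of 17 proteasome genes fell and 6 rose. Their median was 0.15, and -0.74 by gene counts of the same genes. Of 22 actin and tubulin cytoskeleton genes, 6 rose, 5 fell and 11 did not pass (median 0.05, library size only 1.88, control -0.39). TUBA1B, an alpha tubulin, stood at 3146 to 3845 CPM in input and 1075 to 1129 CPM in polysomes (-1.68 ± 0.15, but 0.14 under library size alone). ACTB stood at 472, 300 and 356 CPM in input and at 1542, 1351, 1873 and 751 CPM in polysomes (1.87 ± 0.26; control -0.36), and TPM3, a tropomyosin, rose by 3.16 ± 0.18. Of 22 short-lived and immediate early mRNAs, 11 rose and 2 fell (median 1.06, library size only 2.86), with MCL1, a survival factor, at 2.11 ± 0.26 and KLF10 at 2.59 ± 0.44.

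The polysome-to-input change was then compared with that of the control cells. It differed for 4559 of 12197 genes (37.4%), 2060 with a larger and 2499 with a smaller value in GEMIN5 cells. Library size alone moved the median of these differences from -0.01 to 1.27. Without input library 2 of the GEMIN5 cells, 2676 were larger and 1420 smaller. In control cells 5273 genes differed between polysomes and input (43.2%). Of the genes called higher, 2370 were shared, 59.5% of those in GEMIN5 cells and 80.6% of those in control cells, and 54 were called lower in control cells. Of the genes called lower, 1816 were shared (42.6% and 77.9%), and 71 were called higher in control cells.

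The value was smaller in GEMIN5 cells for 30 of 30 small subunit and 43 of 45 large subunit genes. RPS29 differed by -3.29 ± 0.29 (adjusted p = 1.23e-06, edgeR): its control mean was 1509 CPM in input, far under that of GEMIN5 input, and 652 CPM in polysomes, close to the 683 CPM of GEMIN5 polysomes. SNRPG differed by -2.47 ± 0.26 and ATP5F1E by -2.78 ± 0.28, with control input means of 522.5 and 950 CPM against control polysome means of 482 and 862 CPM. HNRNPL differed by 2.69 ± 0.41 and ACTB by 2.24 ± 0.34, with control input means of 141 and 2094 CPM, above those of GEMIN5 input. The median difference was -2.22 for histones, with 32 of 36 smaller and 0 larger, and 1.02 for hnRNP genes, with 16 of 25 larger and 0 smaller. For mRNAs of mitochondrial DNA, 3 of 13 were larger and 0 smaller. GEMIN5 itself did not pass (0.63 ± 0.25, adjusted p = 0.0530).

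Splicing was read from the percent spliced in (PSI) of each event, which for introns is the percent of transcripts that retain the intron. Of 10159 events tested, 593 (5.84%) differed between polysomes and input, 279 (2.75%) with higher and 314 (3.09%) with lower values in polysomes (limma on log2 odds of the corrected reads, with Benjamini-Hochberg adjustment over all events, as for every adjusted p of an event here). When an event had to move by 15 PSI points or more and leave 5 points or more between the group ranges (a size rule with no test), 411 events (4.05%) differed, 232 higher (2.28%) and 179 lower (1.76%). In control cells 12 of 10800 events (0.111%) passed the test, 5 higher (0.0463%) and 7 lower (0.0648%), in a fit of all 15 libraries. In that same fit 763 events were higher and 574 lower in GEMIN5 cells. A quasi-binomial model, with 1 spread estimate for each event, called 25 higher and 8 lower. Of the events described below, it called the TPGS2 exon and the RNF41, SRSF10, TMED2, RAD51C, RPS2 and RPLP0 introns. It did not call the others (quasi-binomial adjusted p = 0.0558 to 0.290). Leaving out any 1 library left 66 to 148 higher and 94 to 184 lower.

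Exons were included more often and introns retained less often in polysomes. Of 6079 exons 220 rose and 84 fell (5%), and the median difference was 2.05 PSI points, against 0 in control cells. The median exon PSI was 90.3 to 91.6 in the input libraries and 93.6 to 95.04 in the polysome libraries, without overlap, and 94.8 to 95 in control input. Of 1475 introns 20 rose and 185 fell (13.9%), with a median difference of -1.70 points. The median intron retention was 7.58 to 7.69 in input and 5.33 to 5.77 in polysomes, against 5.45 to 5.72 in control input. Alternative 3′ splice sites gave 21 higher and 24 lower of 1346, alternative 5′ splice sites 18 and 21 of 1239, and 0 of 20 microexons passed (0 by the quasi-binomial model too).

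Called exons of the principal transcript mostly rose. Of 3887 tested exons in the principal GENCODE 29 transcript, 157 rose and 8 fell (4.24% called, median 2.42 points). Of 1302 exons whose ends match no GENCODE 29 exon, 50 rose and 39 fell (6.84% called, median 1.43 points). Of 538 exons absent from the principal transcript but present in another protein-coding transcript 5 rose and 19 fell. Of 352 exons in non-coding or nonsense-mediated decay transcripts, which carry early stop codons and are destroyed during translation, 8 rose and 18 fell. Exons at a PSI of 50 to 80 in control input had the largest median difference among 5 bins of PSI, 6.81 points.

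Introns far from the 3′ end fell most often. Within 500 nt of the 3′ end 3.57% of 168 introns were called, at 500 to 1000 nt 8.77% of 342, at 1000 to 2000 nt 20% of 411 and beyond 2000 nt 22.6% of 279. For exons of the principal transcript the share went from 2.19% of 456 to 6.2% of 936 over the same steps. The share of introns called was 6.3% for introns of up to 150 nt and 22% for those above 5000 nt. The part of 3′ coverage and of unspliced RNA in the input lysate in these events was not tested.

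The exons below show what the polysome mRNAs held that many input reads skipped, from GENCODE 29 transcripts of GRCh38, 5′ to 3′, with the exon in capitals and 15 bases of each neighbour in lower case. The first 3 are among the 10 largest rises, and FANCI was added after its values were seen.
CCDC43 (chr17:44682003-44682138, minus strand): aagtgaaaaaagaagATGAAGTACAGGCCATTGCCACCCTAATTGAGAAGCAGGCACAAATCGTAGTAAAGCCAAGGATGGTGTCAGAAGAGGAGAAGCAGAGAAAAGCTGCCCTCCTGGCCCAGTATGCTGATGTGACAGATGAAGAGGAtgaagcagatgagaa
ASPSCR1 (chr17:81995992-81996065, plus strand): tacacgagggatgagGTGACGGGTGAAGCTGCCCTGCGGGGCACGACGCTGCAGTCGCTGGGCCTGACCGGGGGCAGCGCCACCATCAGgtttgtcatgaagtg
SDHA (chr5:225419-225562, plus strand): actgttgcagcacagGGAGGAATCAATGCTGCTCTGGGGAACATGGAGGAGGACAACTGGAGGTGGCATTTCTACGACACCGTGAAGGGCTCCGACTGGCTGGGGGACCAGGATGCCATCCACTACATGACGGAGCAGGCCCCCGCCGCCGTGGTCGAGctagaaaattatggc
FANCI (chr15:89300300-89300385, plus strand): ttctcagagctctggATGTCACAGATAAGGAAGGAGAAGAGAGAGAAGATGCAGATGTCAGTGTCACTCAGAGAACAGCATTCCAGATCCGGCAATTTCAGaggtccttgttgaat

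The largest rise was that of a 97-nt exon of CIRBP, the cold-inducible RNA-binding protein (chr19:1272427-1272523). It was included at 18.2%, 16.2% and 24.6% in input and at 87.2%, 76.3%, 89.5% and 79.2% in polysomes, with at least 86 corrected reads per library. The groups lay far apart (log2 odds 4.38 ± 0.42 SE, adjusted p = 0.00451, limma; quasi-binomial adjusted p = 0.0569), and the control means were 72.8% and 85.9%. The CCDC43 exon stood at 35.5%, 52% and 20% in input and at 92.3% to 98.2% in polysomes (adjusted p = 0.00595, limma; control 90.9% and 95.6%). The ASPSCR1 exon, in a gene for a tether of glucose transporter vesicles, stood at 16.2%, 65.3% and 44.4% in input and at 100%, 100%, 87.2% and 100% in polysomes, from as few as 12 reads. Its call was lost without input library 1 or 3 or polysome library 1 or 2.

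The SDHA exon, in the flavoprotein of complex II, stood at 80.7%, 44.0% and 17.5% in input and 90.0% to 96.5% in polysomes, with as few as 16 reads. The input libraries differed widely, and leaving out any library but input library 1 ended the call (adjusted p = 0.0624 to 0.113). TPGS2, of the tubulin polyglutamylase complex, had a 242-nt exon (chr18:36796809-36797050) at 21.1% to 29.9% in input and 79.5% to 84.6% in polysomes, with at least 123 reads. Its adjusted p by the quasi-binomial model was 0.0204. The FANCI exon, in a gene for DNA crosslink repair, stood at 5.82% to 11.9% in input and 31.2% to 66.4% in polysomes, and its call ended without any 1 input library or polysome library 3. Its control means were 56.4% in input and 45.1% in polysomes.

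The exon joins of CTTN, RNF41 and ZNF330 below are those of introns that were retained in most input transcripts and removed in most polysome transcripts. The SRSF10 intron, the largest change in a splicing factor gene, was retained at only 25.4% to 28.3% in input. The upstream exon is in lower case and the downstream exon in capitals, and the coordinates are those of the intron.
CTTN (chr11:70407592-70409830, plus strand): ccaggagcatatcaaCATACACAAGCTGAG
RNF41 (chr12:56208299-56210296, minus strand): tgaacagggctgtggCCTGGAGATGCCCAA
ZNF330 (chr4:141222492-141224486, plus strand): tgtaatgcctcaatgGAATGTGACAAGTGT
SRSF10 (chr1:23975078-23978712, minus strand): atttgcttatgttcaATTTGAGGATGTTCG

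The CTTN intron, 2239 nt long in the gene of the actin-binding protein cortactin, was retained at 90.9%, 95% and 100% in input and at 15.2%, 15.9%, 5.38% and 44.2% in polysomes. The ranges lay far apart (log2 odds -6.43 ± 0.84, adjusted p = 0.00642, limma; quasi-binomial adjusted p = 0.106), and the control means were 25.8% and 13.4%. The RNF41 intron, in a ubiquitin ligase gene, went from 82.5% to 87.7% to 8.20% to 30.3%, and passed the quasi-binomial model (adjusted p = 0.0493). For ZNF330, a zinc finger protein, input lay at 72.2% to 87.9% and polysomes at 15.3% to 26.1%, while the control input mean was 10.1% (quasi-binomial adjusted p = 0.0558). TMED2, a cargo receptor of early secretion (an intron added after its values were seen), fell from 33.3% to 43.6% to 2.04% to 6.23%, against control means of 5.32% and 3.73%.

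Exons that fell included a 202-nt exon of NELFA, a subunit of the factor that pauses RNA polymerase, found only in nonsense-mediated decay transcripts. It stood at 100%, 94.1% and 65.4% in input and at 13.5% to 33.98% in polysomes, with control means of 15.3% and 22.0%, and its call ended without input library 1 or 2 or polysome library 2 or 3. A 66-nt exon of CBX5, heterochromatin protein 1 alpha (added after its values were seen), fell from 56.1% to 71.4% in input to 15.2% to 28.7% in polysomes, with control means of 20.6% and 20.7%.

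Of 94 tested events in 36 genes of the splicing factor lists, 3 rose and 6 fell (5.84% of all events were called). The SRSF10 intron was retained at 25.4%, 28.3% and 26.5% in input and at 4.62%, 2.74%, 3.27% and 5.57% in polysomes (log2 odds -3.12 ± 0.37, adjusted p = 0.00586, limma; control 5.76% and 2.695%). A 139-nt exon of HNRNPH3 rose from 76.7% to 83.6% to 91.8% to 98.2%, and leaving out any library but the fourth of polysomes ended its call. A 104-nt exon of SRSF2 that belongs to a nonsense-mediated decay transcript, of the kind through which SR proteins limit their own mRNA, stood at 3.10%, 7.20% and 4.86% in input and 0.380% to 0.640% in polysomes (adjusted p = 0.0140, limma), with at least 335 reads per library, a call that ended without input library 2 or 3. Introns of HNRNPH1 and HNRNPA3 fell from 4.76% to 11.1% and 5.53% to 9.58% in input to 0.400% to 0.740% and 0.520% to 2.06% in polysomes (quasi-binomial adjusted p = 0.250 and 0.256). Those of HNRNPK and HNRNPL passed too, but at least 1 input library of each stood at 0%, as did polysome libraries. For the introns of HNRNPA3, HNRNPK and HNRNPL, leaving out 6 of the 7 libraries in turn ended the call.

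Ribosomal protein genes went against the other introns. Of 12 tested introns in these genes 4 rose and 0 fell, with a median of 12.7 points, against -1.74 for introns of other genes. In control cells these medians were 2.81 and 0 points. The change differed from that of control cells for 0 of the 12 introns. They were covered by a median of 4557 reads. The RPS2 intron (chr16:1964629-1964806, minus strand) begins as follows, with its first 20 bases in capitals.
RPS2: GTGAGTCCTGTTGGTCGCTG
It was retained at 9.03%, 11.04% and 14.03% in input and at 52.3%, 49.7%, 42.1% and 43.5% in polysomes, with at least 710 reads per library. All polysome libraries exceeded all input libraries (log2 odds 2.81 ± 0.32, adjusted p = 0.00506, limma; quasi-binomial adjusted p = 0.0475), and the control means moved the same way, from 18% to 38.96%. The RPLP0 intron rose from 15.4% to 16.7% to 27.1% to 34.99% (adjusted p = 0.0350, limma; control 17.4% and 30.1%), a call that ended without any 1 of the 7 libraries. Both introns were picked after their values were seen.

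**Figure D5:**
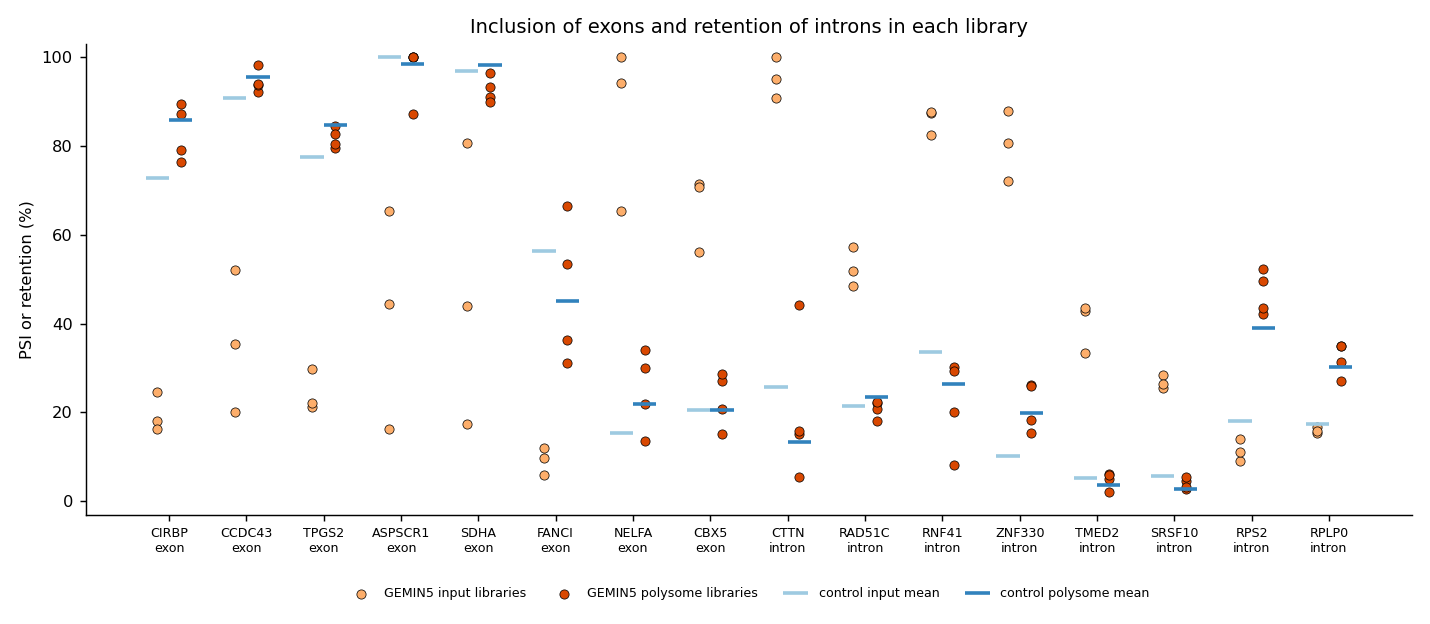
PSI of 8 exons and retention of 8 introns (percent) in each input and polysome library of GEMIN5 cells, with control means as lines. For CIRBP, TPGS2, RNF41 and CBX5 the GEMIN5 input points lie apart from both control lines and the polysome points near them, and for RPS2 and RPLP0 the polysome points lie above the input points as the control lines do.

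The change in PSI between polysomes and input differed from that of control cells for 236 of 10800 events covered in all 15 libraries (2.19%), 116 larger (1.07%) and 120 smaller (1.11%). Of 1379 introns tested both ways 4 were larger and 77 smaller, and of 5812 exons 92 were larger and 28 smaller. CIRBP differed by 3.18 in log2 odds (adjusted p = 0.00826, limma), FANCI by 3.67 (adjusted p = 0.0208) and TMED2 by -3.29 (adjusted p = 0.0115). For the RPS2 intron the difference was 1.26 and did not pass (adjusted p = 0.108, limma).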

How the data were processed

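The deposited gene table holds raw counts per Ensembl gene. Per the submitters' processing notes, the tools were STAR 2.7.10a and featureCounts, with GRCh38/hg38. The featureCounts version, its counting options and its use of strand are not stated there, so overlapping and antisense genes are uncertain. The deposited splicing table gives a percent (PSI) for each event and library, in the layout of vast-tools per the file headers. Its quality column, another deposited field of the unit other (text), holds corrected inclusion and exclusion reads.

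Groups came from the sample titles. Genes that passed filterByExpr entered a single TMM-scaled fit of all 15 libraries in edgeR 4.0.16 in R 4.3.3 (quasi-likelihood, Benjamini-Hochberg, adjusted p under 0.05). DESeq2 1.42.0 was an alternative. Events were kept with 10 or more corrected reads in all compared libraries and unless PSI stayed under 5 or over 95 in all of them. The event test was limma 3.58.1 (trend and robust options), applied to log2 odds after adding 0.5 to inclusion and exclusion reads. Transcript lengths, exons and joins came from GENCODE 29. Spliced reads near the 3′ end were the exclusion reads of introns of the principal transcript, scaled by TMM for the tests and by total counts, with 1 added, for the medians by distance. Library measures were compared by exact permutation tests in SciPy 1.17.1 (Python 3.11.15).

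The members, the 40 gene lists and the tests were chosen with earlier results of these data known. Named genes were GEMIN5, 12 called genes at each end of the log2 changes (5 CPM or more on average, groups apart, no clone-based symbol), and from each list up to 3 called members and 2 abundant ones. For events the rule took 10 at each end of the PSI differences and called events of splicing factor lists. Only some of the genes and events so named appear in the text. An event that the rule names is not reported here. RPL4, FAU, EIF4B, PABPC1, EIF4H, EIF4G2, EIF4E, SDHC, MRPS27, MRPL3, MT-ATP8, PTMA, SUMO2, SMN1, SMN2, CLNS1A, DDIT3, HSP90B1, NCOA4, IREB2 and the events of FANCI, CBX5, TMED2, RAD51C, RPS2 and RPLP0 were chosen after their values were seen.

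The tests were tested on simulated data for this comparison. Among 11825 genes, the test found 16.4% of 1.5-fold, 68.7% of 2-fold and 98.5% of 4-fold changes, and 2 of its 124 calls were genes left unchanged. The simulated libraries shared a common profile apart from the changed genes, without the differences in composition and 3′ coverage of the real ones. These shares therefore do not carry over to the real comparison, in which most genes were called. For events, changes were placed only in events of middle PSI, and all events had the same spread between libraries. The shares were thus not measured near the ends of the PSI scale, where the median exon and intron lay. Among 10159 events, the event test found 30.3% of changes of 30 PSI points and 0% of 10 or 20 points, with 0 false calls of 20. With the changes placed in events of 50 reads or more it found 72.7% of 30 points and 5.97% of 20, with 10 false calls of 62. PCR copies are not independent molecules, so the precision that the depth gives covers counting error only. Figures were drawn with matplotlib 3.10.9.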

Additional observations from a re-analysis of the deposited data

Results flagged for a closer look

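Among 134 groups of 4 polysome libraries checked, 6 were flagged for a library set apart from the other 3. This is no more than the about 1 in 20 that chance gives. GEMIN5 stood at 647 CPM in the fourth library, against 982 to 1035 CPM in the others, and PSMB4 at 553 CPM in the third, against 629 to 643 CPM. The ASPSCR1 exon stood at 87.2% in the third library and at 100% in the others. The HSDL1 intron was retained at 33.3% in the fourth library and at 7.69% to 10.6% in the others. A 62-nt exon of HNRNPH3 stood at 99.0% in the second library and at 100% in the others, and the HNRNPK intron at 0.310% in the first library and at 0% in the others. Where the other libraries are equal, as for ASPSCR1, HNRNPH3 and HNRNPK, any deviation is flagged, however small.

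The change between polysomes and input differed between GEMIN5 and control cells for these genes (edgeR). On the log2 scale the difference was 3.29 for RAVER1, 2.69 for HNRNPL, 2.24 for ACTB and 1.83 for MTPN. It was -3.29 for RPS29, -3.17 for H4C12, -2.78 for ATP5F1E, -2.64 for SELENOW, -2.47 for SNRPG, -2.37 for RPLP1, -1.99 for RPS2, -1.68 for FTL and -1.02 for FTH1.

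For events the difference in log2 odds (limma) was 3.67 for the FANCI exon, 3.18 for the CIRBP exon and 3.004 for the TPGS2 exon. It was -5.07 for the CTTN intron, -3.94 for the RNF41 intron, -3.29 for the TMED2 intron, -2.67 for the CBX5 exon and -2.25 for the RAD51C intron. The RAD51C intron, in a gene for homologous recombination, stood at 48.6% to 57.2% in GEMIN5 input and at 18% to 22.3% in GEMIN5 polysomes, with control means of 21.4% and 23.6%.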

How the results depend on the processing

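Scaling by library size alone gave 10308 genes higher and 465 lower in polysomes, and 8423 larger and 385 smaller differences from control. It turned the sign of GEMIN5 (1.20), RPL4 (0.88), EIF3K (0.23), ATF4 (1.44), PSMB4 (0.31) and TUBA1B (0.14) among 88 printed genes. The medians that it turned were those of other TOP mRNAs (0.83), initiation factors (1.29), aminoacyl-tRNA synthetases (1.12), mitochondrial ribosomal proteins (0.56), the respiratory chain (0.071), histones (0.37), giant proteins (1.20), Sm and LSm proteins (0.15), selenoproteins (0.76), cytosolic chaperones (1.01), the proteasome (1.06) and transcripts of 500 to 1000 nt (0.16) and 1000 to 2000 nt (1.20). RLE scaling, DESeq2, no filter and a fit of only the 7 libraries kept each count of genes within 1.5 times and the direction of all 88 genes. With fewer genes tested, spliced reads within 500 nt gave 476 higher and 628 lower, and those within 1500 nt 1561 and 1933; both were chosen after seeing the data, as was keeping all sites of alternative splice site sets. Leaving out 1 library gave 3630 to 4242 genes higher and 3499 to 4270 lower, and 1740 to 2676 larger and 1420 to 2641 smaller differences; 4 of the 88 genes changed their call.

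Events depended more on the settings, and the cause was not tested. With 1 added to each read number 679 rose and 585 fell, in a fit of all 15 libraries 763 and 574, and with the quasi-binomial model 25 and 8. Leaving out 1 library gave 66 to 148 higher and 94 to 184 lower, and for the difference from control 36 to 157 larger and 53 to 139 smaller. A minimum of 20 reads, with fewer events tested, left 75 larger differences, and 104 lower by the size rule. By that rule 25 points gave 100 higher and 99 lower, and leaving out 1 library 234 to 342 higher and 182 to 221 lower. Of 38 named events, 17 lost their call without at least 1 library and 27 with the quasi-binomial model.

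Libraries with the same number did not vary together (r of 0.01, 0.06 and -0.12 for the 3 pairs), so the numbers are not taken as pairs. With the replicate block, 40 events rose and 60 fell, 15 of the 38 named events lost their call, and 11 differences from control were larger and 14 smaller; the gene counts stayed within 1.5 times (4203 higher, 4145 lower; 2545 larger, 2545 smaller).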

Other observations

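The lists below belong to no group above. Genes of each moved in both directions in GEMIN5 cells, as did all genes (32.6% higher and 35% lower). Of 30 genes of DNA replication 17 fell and 6 rose (median -0.42, control -0.50, library size only 1.39), and of 23 genes of mitosis 11 fell and 6 rose (median -0.10, library size only 1.71). Of 21 genes of cholesterol synthesis 12 fell and 5 rose (median -0.42, library size only 1.40), and of 14 genes of glycolysis 5 fell and 3 rose (median -0.08, library size only 1.74). Of 20 membrane transporters 8 rose and 5 fell (median 0.51, library size only 2.31), while of 25 genes of matrix and adhesion 11 fell and 4 rose (median -0.71, library size only 1.05). LAMA1, a laminin chain, stood at 10.3 to 11.7 CPM in input and at 1.03 to 1.73 CPM in polysomes (-3.01 ± 0.22).

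Of 16 factors of nonsense-mediated decay 8 fell and 5 rose (median -0.42, library size only 1.39). Of 29 ribosome biogenesis genes 10 fell and 6 rose (median -0.16, control -0.56, library size only 1.64). KRAB zinc finger genes gave 12 lower and 8 higher of 35 (median 0.07). Of 9 measured marker genes of HEK-293 cells 5 rose and 4 fell, with changes from -1.34 to 3.55. The largest rise was that of LIN28B, an RNA-binding protein of early development. It went from 2.10 to 3.44 CPM in input to 21.8 to 38.8 CPM in polysomes (3.55 ± 0.29, control 1.98).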
